A study of Mus musculus with 12 samples.

Results

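The epithalamus and the prethalamus are the neighbours of the thalamus in the embryonic diencephalon, and each was represented by 1 bead array in a study of thalamic neuron identity. The 2 arrays, of 12 in the series, were chosen by their descriptions alone. Both hold RNA of wild-type CD1 mouse embryos at stage E12.5 and lie on the same chip of 6 arrays, beside 2 arrays of wild-type (WT) thalamus and 2 of Gbx2 knockout (KO) thalamus of the same strain and age. Every array carries thalamus as its tissue entry, so a region is known from the description only. No source used here says whether embryos were pooled. With 1 array per region there is no replicate spread and no test, and every difference below is a measured difference between 2 arrays.

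The diencephalon is divided along its length into the pretectum, the thalamus with the epithalamus on its dorsal side, and the prethalamus. The epithalamus gives rise to the habenula and the pineal gland, and its dorsal midline is a source of Wnt and BMP signals. The prethalamus lies in front of the zona limitans, a boundary that secretes Sonic hedgehog, and its neurons are mostly GABAergic and arise under Dlx homeobox genes. Most neurons of the thalamus are glutamatergic, and Gbx2 marks them soon after they are born.

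Values are normalized log2 bead intensities, so 1 unit is a 2-fold difference, and a difference is the epithalamus value minus the prethalamus value. A probe was called detected at a detection p under 0.05. On the epithalamus array 35.13% of all probes were detected and on the prethalamus array 36.04%, with maximum signals of 45577.3 and 45036.0. Of 23397 named genes, 10475 were detected on at least 1 of the 2 arrays and were compared, 8932 of them on both. Intensity was measured in bulk tissue, where fewer cells of a type and less RNA per cell cannot be told apart.

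Isl1, Meis2, Dlx6 and somatostatin were far higher on the prethalamus array, and Esrrb, Tfap2d, Bhlhe23 and the 3 Ebf genes were far higher on the epithalamus array. In all, 397 of 10475 genes (3.79%) were apart by 2-fold or more, 202 (1.93%) higher on the epithalamus array and 195 (1.86%) higher on the prethalamus array. At 4-fold or more there were 93 genes (0.888%), of which 52 (0.496%) were higher on the epithalamus array and 41 (0.391%) on the prethalamus array. The median difference over all genes was 0.015. Of the 202 and 195 genes, 72 and 53 were detected on 1 array alone, and for 52 and 33 of the genes detected on 1 array a lower bound of the difference also reached 2-fold. Among the 8932 genes detected on both arrays, 272 (3.05%) were 2-fold or more apart. Dim genes detected on 1 array, such as Irx1, Th and Hhip, count as 2-fold apart by their measured values although their bounds do not reach it.

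**Figure D1:**
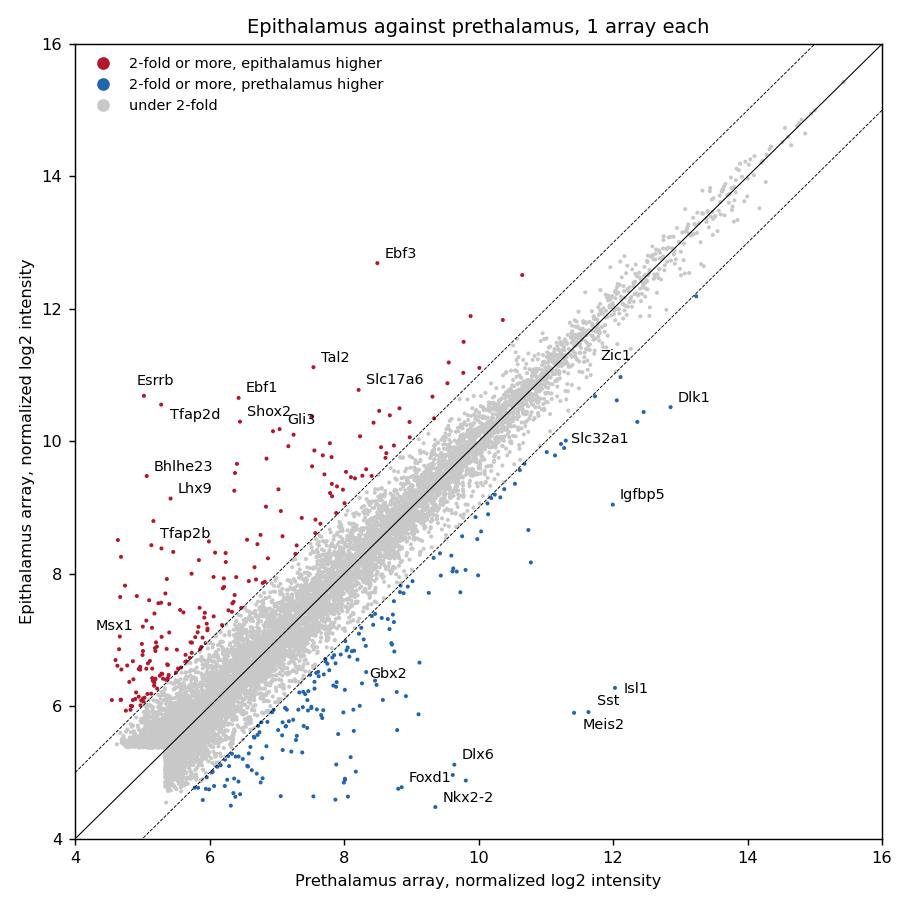
Normalized log2 intensity of 10475 genes on the prethalamus array (horizontal axis) and the epithalamus array (vertical axis), 1 point per gene, with the solid line at equality and the dashed lines at 2-fold. Most genes lie between the dashed lines, while Isl1 (6.28 against 12.03) and Meis2 (5.90 against 11.42) stand apart on the prethalamus side and Ebf3 (12.69 against 8.49) on the epithalamus side.

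The replicate arrays of thalamus give a scale for these counts, and the WT and KO pairs differ in it. Over the same 10475 genes, the 2 WT thalamus arrays were apart by 2-fold or more in 756 genes (7.22%) and the 2 KO thalamus arrays in 44 (0.420%). At 4-fold or more the counts were 93 between the regions, 60 (0.573%) between the WT arrays and 2 (0.0191%) between the KO arrays. At 8-fold or more, a log2 difference of 3, they were 35, 8 and 0. The count between the regions thus was below that between the WT arrays at 2-fold and above it at 4-fold, and was above that between the KO arrays at each of these sizes. Of the 397 genes, 366 differed by more between the regions than between the 2 WT thalamus arrays. These genes were chosen for their difference between the regions. Only 7.22% of all compared genes reached 2-fold between the WT arrays, so a high count was built in and tests nothing. Genes lie close on both sides of the 2-fold threshold: Septin7 differed by 1.005 and Snrnp25 by 0.998.

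**Figure D2:**
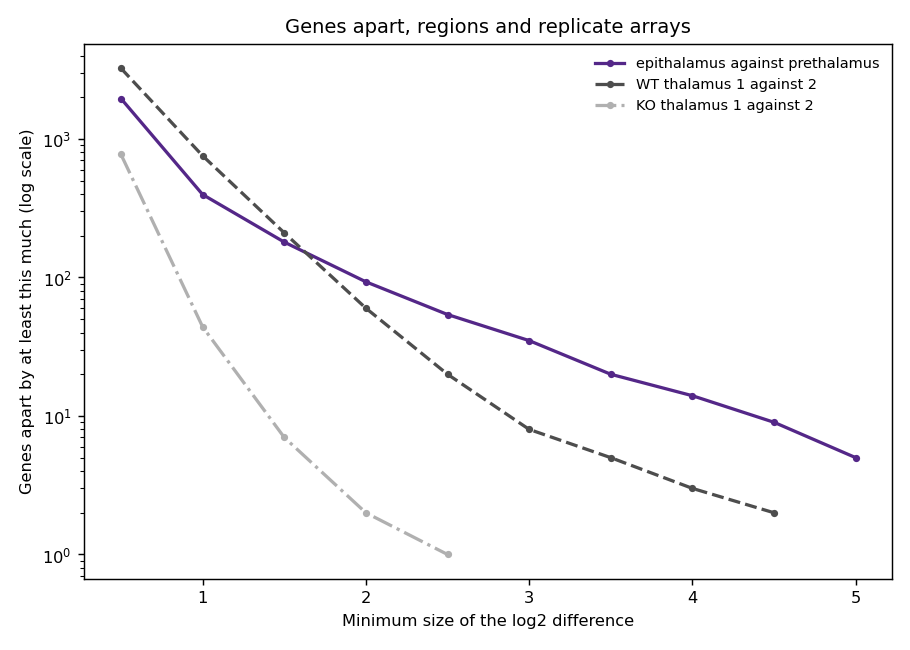
Number of genes (log axis) whose log2 difference is at least the size on the horizontal axis, over the same 10475 genes, for the epithalamus against the prethalamus array, WT thalamus replicate 1 against 2 and KO thalamus replicate 1 against 2. The WT pair lies above the 2 regions at a difference of 1 (756 against 397 genes) and below them at 2 (60 against 93) and at 3 (8 against 35).

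The given markers separated the 2 arrays. Isl1, a LIM homeodomain transcription factor, read 12.03 on the prethalamus array, 6.28 on the epithalamus array, and 5.34 and 5.32 on the WT thalamus arrays, where it was not detected. Meis2, a TALE homeobox gene, read 11.42 on the prethalamus array against 5.90 on the epithalamus array. In fold terms Isl1 was 53.8-fold and Meis2 45.8-fold higher on the prethalamus array. Tfap2b, which encodes an AP-2 transcription factor, was detected on the epithalamus array alone, at 8.43 against 5.13, and was at least 8.55-fold higher there. Such a bound sets the bright array against the lowest detected signal of the dim array, or against the gene's own value where that is higher. Folds and bounds here and below hold only for the background correction used. Without it the differences of Isl1, Meis2 and Tfap2b were -4.49, -4.05 and 1.69. A second detected Tfap2b probe stood at 1.12, against 3.30 for the one used. Msx1, a homeobox gene active at the dorsal midline, was also detected on the epithalamus array alone, at 7.20 against 5.01, and at least 3.65-fold higher. Msx1 is dim, and without background correction its difference was 0.93, under 2-fold.

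Promoter windows of 4 leading transcription factor genes, Isl1 and Meis2 of the prethalamus array and Ebf3 and Tfap2d of the epithalamus array, were searched for motifs of factor families that differ between the arrays. The 2 windows with a match, chosen for it, are shown as 1 locus from each side. Each line is the 250 bases before the annotated start from RefSeq (GRCm38.p6), read 5′ to 3′ on the strand of the gene. Capitals mark matches, on either strand, to 4 motifs: AP-2 (GCCNNNGGC), EBF (TCCC and GGGA with NN between them), a homeodomain core (TAATTA) and a bHLH E-box (CAGNTG). The Isl1 window lies at chr13:116309689-116309938 on the minus strand, and the Ebf3 window at chr7:137314446-137314695 on the minus strand.
Isl1: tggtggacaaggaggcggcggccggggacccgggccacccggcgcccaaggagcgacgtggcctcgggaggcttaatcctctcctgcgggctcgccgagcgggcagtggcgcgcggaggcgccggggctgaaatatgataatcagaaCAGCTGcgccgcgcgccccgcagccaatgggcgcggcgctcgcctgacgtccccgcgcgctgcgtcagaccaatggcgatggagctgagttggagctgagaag
Ebf3: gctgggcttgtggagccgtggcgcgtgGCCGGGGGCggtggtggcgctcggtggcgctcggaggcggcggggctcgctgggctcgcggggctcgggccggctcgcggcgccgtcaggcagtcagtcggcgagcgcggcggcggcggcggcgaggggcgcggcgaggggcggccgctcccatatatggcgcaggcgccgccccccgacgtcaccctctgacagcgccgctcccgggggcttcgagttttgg
The Isl1 window held 1 E-box match, 103 bases before the start, and the Ebf3 window 1 AP-2 match, 223 bases before it. Both windows are rich in G and C, at 71.2% and 80.0% of bases. Windows of Meis2 and of Tfap2d, at 47.6% and 39.6%, held none of these letters. For Tfap2d only 1 of its 3 windows was read in this way. Among all 32851 windows, 44.8% hold the E-box letters, 13.7% the AP-2 letters, 4.84% the homeodomain core and 0.779% the EBF letters. Of 46 windows matched to 36 of the genes at least 4-fold higher on the epithalamus array, 15 (32.6%) held the E-box and 7 (15.2%) the AP-2 letters. Of 31 windows of 28 genes at least 4-fold higher on the prethalamus array, 12 (38.7%) and 2 (6.45%) did. Of 8936 windows of genes compared here, 37.8% held the E-box and 20.2% the AP-2 letters. A match is a description of sequence and not a site.

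On the array labelled prethalamus every measured marker of its label was detected, though not all set it apart. Of 8 prethalamic and GABAergic markers with a probe in use, all 8 were detected there, against 36.04% of all probes. Shares of all probes count dim and unnamed probes too, whereas a marker is read by the brightest probe of its gene. On the epithalamus array 5 of the 8 were detected too. Of the 8, 6 were 2-fold or more higher on the prethalamus array, against 1.86% of compared genes, with none the other way. Dlx5 read 5.43 on the epithalamus array and 5.47 on the prethalamus array, near their lowest detected values of 5.37 and 5.34. The homeobox genes Dlx6 and Dlx2 were not detected on the epithalamus array. The array labelled epithalamus matched its label in part. Of 10 epithalamic markers with a probe, it detected 6, against 35.13% of all probes, namely Msx1, Wnt1, Rspo1, Zic1, Irx1 and Gng8. Lmx1a, Wnt3a, Rspo3 and the habenular POU domain gene Pou4f1 were not detected on it. Lmx1a, Wnt3a and Pou4f1 were not detected on the prethalamus or WT thalamus arrays either, so they do not tell these arrays apart. Rspo3 went the other way and was detected on the prethalamus array, at 5.735 against 5.145. Only 2 of the 10, Msx1 and Irx1, were 2-fold or more higher there, against 1.93% of compared genes. The prethalamus array detected 3 of the 10. Wnt1 at 5.52 and Rspo1 at 5.44 were near the lowest detected value of 5.37. The array labelled epithalamus also detected 5 of 6 pretectal markers, all but Pax7. All 5 were 2-fold or more higher on it than on the prethalamus array, against 1.93% of compared genes. Pretectal genes are not particular to it, since 3 of the 6 were detected on both WT thalamus arrays, where Tfap2d read 8.10 and 7.05, Ebf1 10.09 and 9.74 and Ebf3 10.65 and 11.27. "Epithalamus array" below means the array with that label. The part of neighbouring tissue in the differences was not tested.

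Prethalamic transcription factors were mostly higher on the prethalamus array, some of them by very large differences. Of 17 compared, 7 were 2-fold or more higher on the prethalamus array, 10 were under 2-fold and none was higher on the epithalamus array, with a median difference of -0.90 against 0.015 over all genes. In all, 13 of the 17 differences were below 0. The share of 7 in 17 stands against a background of 1.86% in that direction. Dlx6 read 9.64 on the prethalamus array and was at least 19.2-fold higher there. Dlx2 read 7.88 against 5.12 and Fezf1, a forebrain zinc finger gene, 7.996 against 4.85, each undetected on the epithalamus array. Others of the group were under 2-fold. The LIM homeobox gene Lhx5 read 9.09 and 9.31 and was nearly equal, while Lhx1 read 11.05 and 12.04, a difference of -0.99, and Pax6 6.99 and 7.74, a difference of -0.75. Both regions thus expressed the Lhx genes, which the WT thalamus arrays did unevenly, Lhx5 at 5.03 and 8.11.

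GABA synthesis and transport genes were present on both arrays and differed less than Isl1, Dlx6 and Dlx2. The related Dlx5 was nearly equal, at 5.43 and 5.47, but these values lie near the lowest detected ones of 5.37 and 5.34. Slc32a1, the vesicular GABA transporter gene, read 9.90 on the epithalamus array and 11.27 on the prethalamus array, a 2.59-fold difference. Gad1, which encodes a glutamate decarboxylase that makes GABA, read 10.15 and 11.06, with a second probe at -0.97 against -0.91. Of 5 genes compared, 2 were 2-fold or more higher on the prethalamus array, against 1.86% of all genes, and the median was -0.91. The WT thalamus arrays themselves were uneven in these genes, with Slc32a1 at 5.82 on replicate 1 and 8.73 on replicate 2.

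The glutamatergic gene Slc17a6, which encodes a vesicular glutamate transporter, went the other way. It read 10.78 on the epithalamus array, 8.22 on the prethalamus array, and 11.53 and 11.56 on the WT thalamus arrays, a 5.90-fold difference between the regions. Of 6 glutamatergic, cholinergic and monoamine transmitter genes compared, 1, Slc17a6, was 2-fold or more higher on the epithalamus array. On the prethalamus array 3 were higher by 2-fold or more, Ddc, Slc18a2 and Th. Over all genes the shares in these directions were 1.93% and 1.86%. Ddc, which encodes aromatic amino acid decarboxylase, read 8.14 against 5.63, and Slc18a2, the vesicular monoamine transporter gene, 7.67 against 5.82. Th, the tyrosine hydroxylase gene, read 6.26 and was not detected on the epithalamus array, with a bound of 1.85-fold. The dopamine transporter gene Slc6a3 was not detected on either. The Th and Slc18a2 differences fell under 2-fold without background correction, at -0.54 and -0.91, and a second Ddc probe stood at -0.53. On the WT thalamus arrays Slc18a2 read 8.79 and 7.55, so it was not low there.

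Among neuropeptide genes 1 difference dominated. Somatostatin, Sst, read 11.63 on the prethalamus array and 5.91 on the epithalamus array, and 4.93 and 6.43 on the WT thalamus arrays, so it was 52.7-fold higher in the prethalamus than in the epithalamus. The Sst difference was -5.72, and -4.24 without background correction. The secretogranin gene Scg2 was detected on the prethalamus array alone, at 6.76, and its difference was under 2-fold, at -0.78, without background correction. The other 5 of 7 neuropeptide genes compared were under 2-fold apart. Rxfp3, the receptor of the peptide relaxin-3, was detected on the prethalamus array alone, at 8.80, and was at least 10.8-fold higher there.

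Pretectal and midbrain transcription factors were higher on the epithalamus array and had the highest median of all lists described. Of 14 compared, 11 were 2-fold or more higher there and none on the prethalamus array, with a median of 2.22, against a background of 1.93% of genes in that direction. Tfap2d, a relative of Tfap2b, read 10.55 and was not detected on the prethalamus array, so it was at least 37.2-fold higher. Without background correction the Tfap2d difference was 3.44. The early B-cell factor genes, which encode transcription factors of young neurons, moved together. Ebf3 read 12.69 against 8.49 and Ebf1 10.66 against 6.43, while Ebf2 read 8.80 and was not detected on the prethalamus array. By their second probes Ebf3 stood at 4.38 and Ebf1 at 2.81. The Ebf genes were not low in the thalamus: Ebf1 read 10.09 and 9.74 on the WT arrays, and Ebf3 10.65 and 11.27. Tfap2b, by contrast, was not detected on either WT thalamus array.

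**Figure D3:**
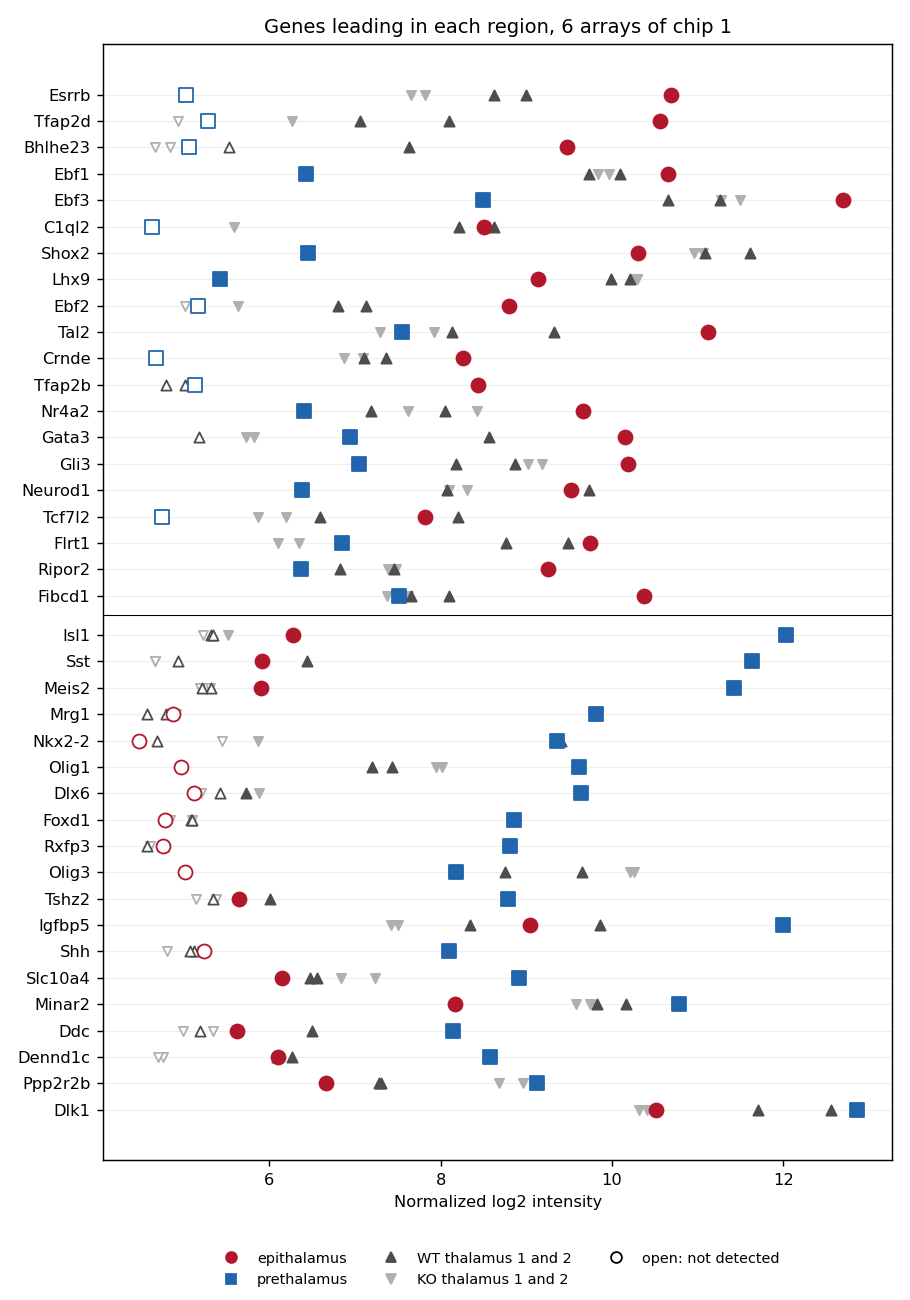
Normalized log2 intensity on the 6 arrays of the chip for the genes with the largest differences between the regions, upper block higher on the epithalamus array and lower block higher on the prethalamus array, with open symbols where a gene was not detected. Tfap2b stands out on the epithalamus array from all other arrays, and Isl1, Meis2, Foxd1 and Rxfp3 on the prethalamus array, whereas Ebf1, Shox2, Lhx9 and C1ql2 are as high or nearly as high on the WT thalamus arrays.

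Other leading genes of the epithalamus array were also transcription factors. Esrrb, an orphan nuclear receptor gene, read 10.69 and was not detected on the prethalamus array, at least 40.8-fold lower there. Without background correction the Esrrb difference was 3.68. Bhlhe23, a basic helix-loop-helix gene, read 9.48 and was at least 17.6-fold higher than on the prethalamus array. Shox2, a homeobox gene, read 10.30 against 6.45, and Lhx9, a LIM homeobox gene, 9.14 against 5.42. Both were higher still on the WT thalamus arrays, at 11.61 and 11.09 for Shox2 and at 10.21 and 9.98 for Lhx9. Nr4a2, a nuclear receptor gene, read 9.66 against 6.41 and Neurod1, a gene of neuronal differentiation, 9.52 against 6.38. Outside transcription factors, Flrt1, an adhesion protein gene, read 9.74 against 6.85, Ripor2 9.26 against 6.37 and Fibcd1 10.37 against 7.51. C1ql2, a secreted C1q-like protein gene, at 8.51, and the long noncoding RNA gene Crnde, at 8.26, were not detected on the prethalamus array. For Flrt1 the second probe stood at 2.15, and for Ripor2 the other detected probes at 1.15 and 1.31.

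Leading genes of the prethalamus array included Nkx2-2, Olig1, Foxd1 and Nkx2-1 beside the markers above. Nkx2-2, a homeobox gene induced by Sonic hedgehog, read 9.36 and was at least 15.8-fold higher than on the epithalamus array. Foxd1, a forkhead gene, read 8.86 and was at least 11.2-fold higher. The basic helix-loop-helix gene Olig1 read 9.62, at least 18.9-fold higher, and its relative Olig3 8.17, at least 6.97-fold higher. Olig1 and Olig3 were detected on both WT thalamus arrays too, Olig3 at 9.64 and 8.76. The name Mrg1 of the file, which RefSeq lists as a synonym of both Meis2 and Cited2, was kept, and its 2 probes stood at -4.93 and -2.42. Among genes detected on both arrays, Tshz2, a teashirt zinc finger gene, read 8.79 against 5.64. Igfbp5, which encodes a binding protein of insulin-like growth factors, read 11.996 against 9.04, and Dlk1, a transmembrane relative of Notch ligands, 12.86 against 10.52. Their second probes gave -3.02 and -2.73. Slc10a4 read 8.92 against 6.15, Minar2 10.78 against 8.17, Ppp2r2b 9.12 against 6.66 and Dennd1c 8.58 against 6.10. Dlk1 and Minar2 were not low in the thalamus. On the WT thalamus arrays Dlk1 read 11.71 and 12.55 and Minar2 10.16 and 9.825.

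Genes of the rostral thalamus and the zona limitans split between the arrays. Of 10 compared, 5 were 2-fold or more higher on the epithalamus array and 4 on the prethalamus array, against 1.93% and 1.86% of all genes, which are also the background of the list counts that follow. The 5 were the GABAergic selector genes Gata2, Gata3, Tal2 and Helt with the transcription factor gene Sox14. Tal2 read 11.12 against 7.54, Gata3 10.15 against 6.94, Gata2 9.86 against 7.56 and Sox14 9.76 against 7.81. Among the 4 were Shh, which encodes Sonic hedgehog, and Nkx2-2 and Foxa1, none of them detected on the epithalamus array. Shh read 8.10 on the prethalamus array, at least 6.61-fold higher. The WT thalamus arrays were uneven here, since Gata3 read 5.18 on replicate 1 and 8.56 on replicate 2 and Nkx2-2 4.69 and 9.40.

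Sonic hedgehog pathway genes differed in both directions. Of 9 compared, 5 were 2-fold or more higher on the prethalamus array and 1, Gli3, on the epithalamus array, and the median was -1.03. Over the members detected on both arrays the median was 0.70, of the opposite sign. Ptch1, the Sonic hedgehog receptor gene and itself a target of the pathway, read 9.68 against 8.04. Hhip, which encodes a hedgehog-binding inhibitor, was detected on the prethalamus array alone, with a difference of -1.03. Gli3, the main repressor among the Gli transcription factors, read 10.19 on the epithalamus array and 7.04 on the prethalamus array, an 8.85-fold difference. The WT thalamus arrays lay between, at 8.87 and 8.18. The target gene Gli1 was not detected on either region's array.

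Some Wnt pathway genes were higher on the epithalamus array, and most were under 2-fold. Of 19 pathway genes compared, 12 were under 2-fold, 6 were 2-fold or more higher there and 1, the inhibitor gene Sfrp1 at -1.11, on the prethalamus array, with a median of 0.58. The frizzled receptor genes Fzd10 and Fzd1 read 8.21 against 5.84 and 9.79 against 7.68. Lgr5, a receptor of R-spondins, was detected on the epithalamus array alone, at 6.83. Of the transcriptional effectors, Tcf7l2 read 7.82 and was not detected on the prethalamus array, and Lef1 read 7.89 against 6.58. Sfrp2, which encodes a secreted Wnt-binding protein, read 9.17 against 7.82. The ligand gene Wnt1 was detected on the epithalamus array alone, at 5.52. Wnt5a, Wnt7a, Wnt7b and Wnt8b were detected on at least 1 array and were under 2-fold apart, while Wnt3a, Wnt4 and Wnt11 were not detected on either. The Wnt target Sp5 was close between the regions, at 8.99 and 9.20, and the receptor genes Fzd5 and Fzd9 were not detected on either. Without background correction Lgr5 was under 2-fold, at 0.73.

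BMP ligands with a probe in use, Bmp4, Bmp5, Bmp6, Bmp7 and Gdf10, were not detected on either array. Of 10 BMP pathway genes compared, 2 were 2-fold or more higher on the epithalamus array, Msx1 and Id2, and none on the prethalamus array. Id2, which encodes an inhibitor of basic helix-loop-helix factors, read 9.93 against 7.17, whereas its relatives Id3, at 8.12 and 7.87, and Id4, at 8.33 and 8.27, differed little. A second Id4 probe stood at -0.64. Among FGF genes only Fgfr2, a receptor gene, was past 2-fold, at 11.04 against 9.77, and as the mean of its detected probes at 0.98. The retinoic acid binding protein gene Crabp1 was detected on the epithalamus array alone, at 7.67, and was at least 5.02-fold higher there.

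Habenular and roof plate genes gave fewer differences past 2-fold. Of 11 habenular genes compared, 3 were 2-fold or more higher on the epithalamus array, Nr4a2, Cntn2 and Irx1, and 2 on the prethalamus array, Isl1 and Etv1, with a median of 0.06. Cntn2, an axonal adhesion gene, read 11.19 against 9.56 by the probe used, and 0.95 as the mean of its detected probes. Irx1, an Iroquois homeobox gene, was detected on the epithalamus array alone at 6.10, and its difference was 0.62 without background correction. Of 10 roof plate, epithalamic progenitor and pineal genes, 3 were higher on the epithalamus array, Msx1, Dbx1 and Zic4, and none on the prethalamus array. Dbx1, a homeobox gene of progenitors, read 10.46 against 8.52, and the WT thalamus arrays read 10.42 and 9.76. Zic4 read 9.36 against 7.82, but its 3 other probes stood at 0.78, 0.04 and -0.29. The related Zic1 was nearly equal, at 11.54 and 11.71.

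**Figure D4:**
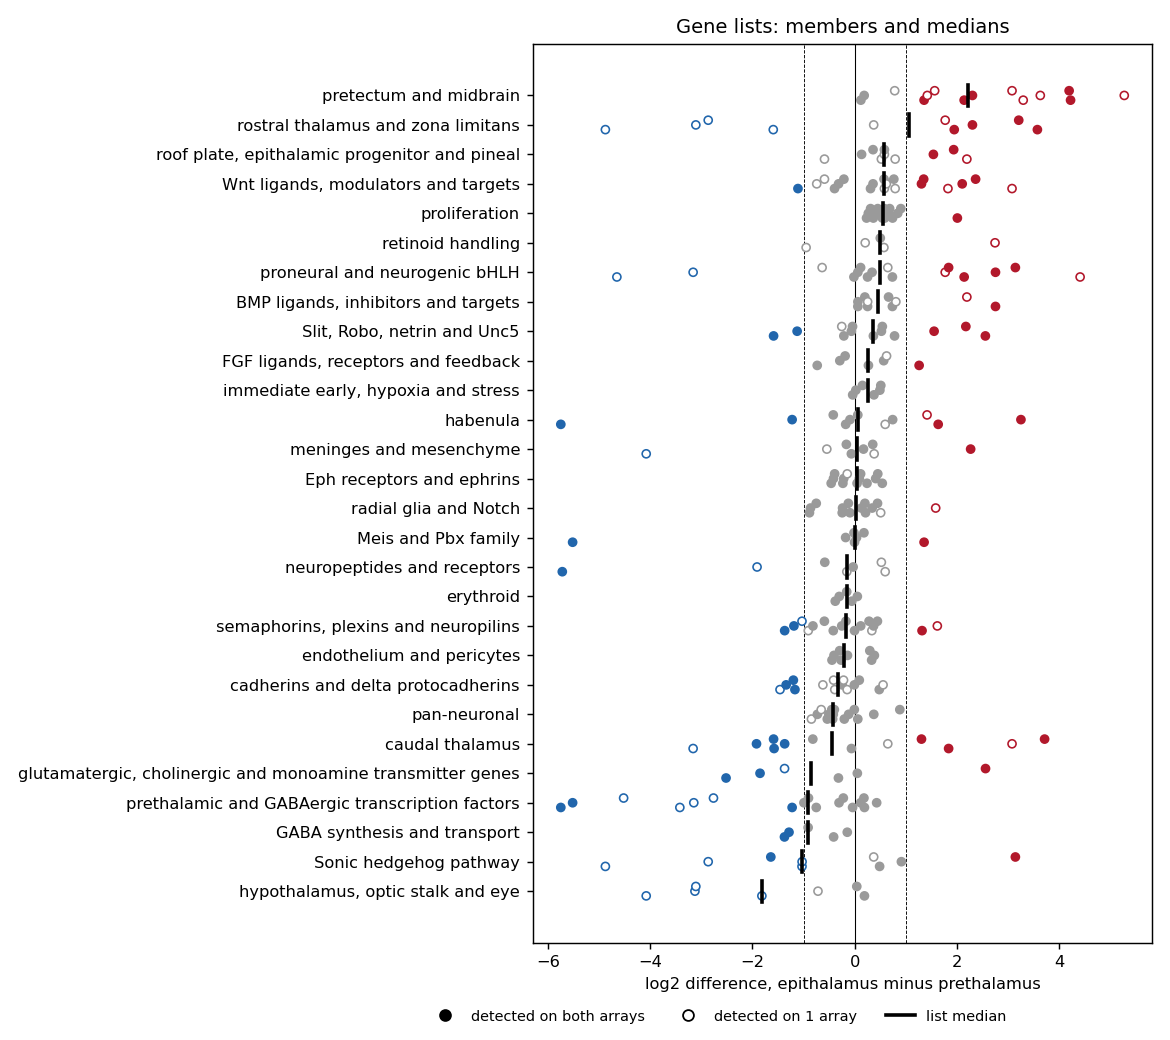
Log2 difference, epithalamus minus prethalamus (horizontal axis), of each compared member of the gene lists with 5 or more members compared, with the list median as a black bar, dashed lines at 2-fold and open symbols where a gene was detected on 1 array. Pretectal and midbrain genes have the highest median, 2.22, and hypothalamic and eye genes the lowest, -1.82, which rests on 5 genes detected on the prethalamus array alone and is 0.12 over genes detected on both arrays, while Eph and ephrin genes all lie within 2-fold.

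Basic helix-loop-helix genes of neurogenesis also differed by member. Of 16 compared, 6 were 2-fold or more higher on the epithalamus array, Neurod1, Neurog2, Bhlhe22, Bhlhe23, Helt and Id2, and 2 on the prethalamus array, Olig1 and Olig3. Neurog2, a proneural gene of glutamatergic lineages, read 10.08 against 8.24, and the WT thalamus arrays read 11.11 and 10.46.

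Progenitor and proliferation genes differed little one by one. Of 14 radial glia and Notch genes compared, 13 were under 2-fold and 7 were within 0.25 log2 on both arrays, as were 57.9% of all genes detected on both. The intermediate filament gene Nes read 9.43 and 9.52 and Sox2, a progenitor transcription factor gene, 7.60 and 7.38. The Notch ligand gene Jag1 was the exception, detected on the epithalamus array alone at 6.55, and its difference was under 2-fold, at 0.62 without background correction and 0.97 with an offset of 50. Of 16 proliferation genes all had positive differences, with a median of 0.56 against 0.015 over all genes, but only Ccnd2, the cyclin D2 gene, passed 2-fold, at 11.89 against 9.88. Its second detected probe stood at 2.35. The replicate WT thalamus arrays differed in this list too, in 1 direction in all 16 genes, with a median of 0.90 and by more than the regions in 14 of them. Cyclin D1, Ccnd1, read 11.46 and 11.23. Pan-neuronal genes had a median of -0.42 over 15 compared, with none past 2-fold. Dcx, a microtubule protein gene of young neurons, read 12.23 and 12.43, and Gap43, a growth cone protein gene, 12.23 and 12.35.

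Axon guidance and adhesion genes gave differences in both directions. In the Slit, Robo and netrin families, 3 of 13 were 2-fold or more higher on the epithalamus array and 2 on the prethalamus array. Netrin-G2, Ntng2, read 7.92 against 5.36, whereas netrin-G1, Ntng1, read 6.29 against 7.88. The netrin receptor gene Unc5b read 9.02 against 6.84, while its relative Unc5c was equal within 0.04, at 7.92 and 7.97. The Slit receptor gene Robo2 read 7.10 against 8.22, and the ligand gene Slit2 7.95 against 6.40. Of 17 semaphorin and plexin genes, 2 were higher on the epithalamus array, Sema3f at 10.29 against 8.97 and Sema3c, and 3 on the prethalamus array, Sema5a, Sema3a and Plxna2. Of 14 cadherins and protocadherins, 4 were higher on the prethalamus array, Cdh8, Pcdh7, Pcdh8 and Pcdh19, and none on the epithalamus array, against a background of 1.86%. Cdh8 read 8.72 against 7.38, with a second probe at -1.003. All 13 Eph receptor and ephrin genes compared were under 2-fold, with Ephb1 at 10.59 and 10.54 by one probe and at 0.05 apart by the other. Netrin-G1 had a second probe at -0.50. Without background correction the differences of Ntng1, Slit2, Sema3c, Sema5a, Plxna2, Cdh8, Pcdh7, Pcdh8 and Pcdh19 were under 2-fold.

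The Meis and Pbx genes, which encode TALE homeodomain partners, showed how closely related genes could part. Meis2 was 45.8-fold higher on the prethalamus array and Meis1 higher on the epithalamus array, at 9.46 against 8.10, with a second Meis1 probe at 1.23. The other 5 compared were each within 0.25 log2, among them Meis3, at 7.997 and 8.008, and Pbx2, at 8.17 on both arrays.

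Both regions differed from the thalamus in the same direction in some genes, of which several of the largest are given here with the values of all 4 WT arrays, since the comparisons share the WT thalamus arrays. Gbx2 read 6.35 on the epithalamus array and 8.27 on the prethalamus array against 13.73 and 13.30 on the thalamus arrays. The semaphorin gene Sema5a read 5.95 and 7.32 against 11.01 and 10.98, and the sulfotransferase gene Chst1 8.04 and 9.61 against 12.29 and 12.28. Cyp1b1, a cytochrome P450 gene, was not detected on either region's array, against 8.15 and 8.54. Gbx2, Sema5a and Chst1 were each lower on the epithalamus array than on the prethalamus array, by 1.92, 1.37 and 1.58. The G protein gene Gng8, used as a habenular marker, was also lower in both, at 7.42 and 6.68 against 9.77 and 10.04. Crabp2 read 6.95 and 6.45 against 9.32 and 9.50, and Pdzrn4 5.67 and 6.48 against 8.68 and 9.99. Of 12 caudal thalamic genes compared, 4 were 2-fold or more higher on the epithalamus array, Lhx9, Tcf7l2, Neurog2 and Lef1, and 5 on the prethalamus array, Gbx2, Olig3, Ntng1, Chst1 and Sema5a. Syt13, a synaptotagmin gene, was detected on the epithalamus array, at 6.31, and not on the prethalamus array.

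In the other direction, the zinc transporter gene Slc30a3 read 9.18 on the epithalamus array and 9.50 on the prethalamus array against 5.10 and 5.79 on the thalamus arrays. Sp5 read 8.99 and 9.20 against 7.46 and 7.51. Both genes thus differed little between the 2 neighbours, by 0.32 and 0.21, and were lower on both thalamus arrays. Meis1 read 9.46 and 8.10 against 6.27 and 5.17. Smoc1, a secreted matrix protein gene, read 9.50 and 7.71 against 5.93 and 5.62. Esrrg, an orphan nuclear receptor gene related to Esrrb, read 7.32 and 8.23 against 5.88 on both. Gad1 read 10.15 and 11.06 against 4.84 and 8.70, so its distance from the thalamus depends on which WT array is taken.

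**Figure D5:**
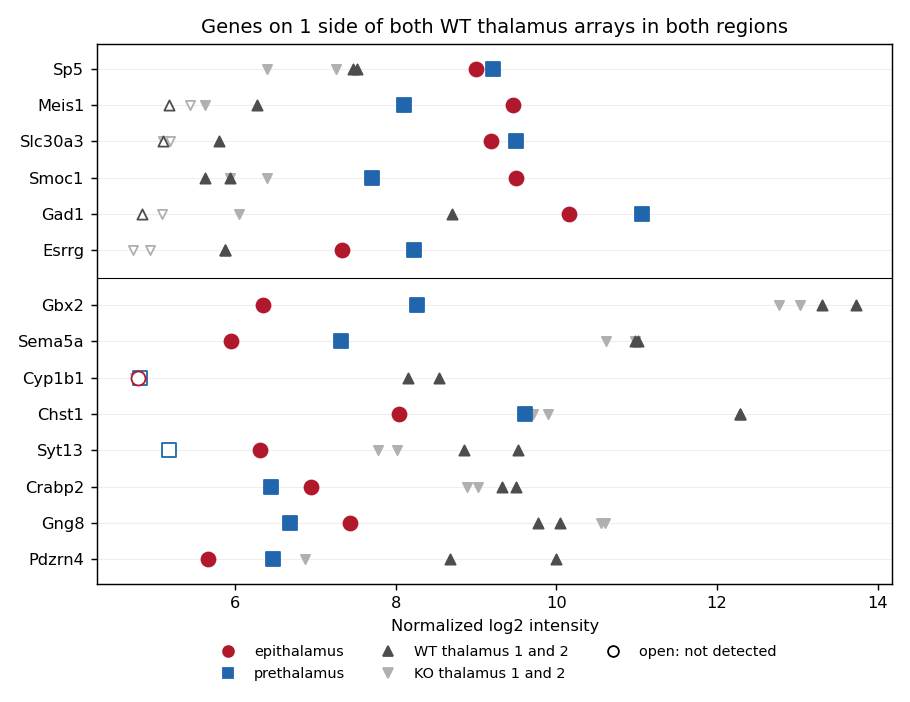
Normalized log2 intensity on the 6 arrays of the chip for genes that lie above both WT thalamus arrays in both regions (upper block) or below both (lower block), with open symbols where a gene was not detected. Slc30a3 and Sp5 differ little between epithalamus and prethalamus, while Gbx2, Sema5a and Chst1 are lower in both regions than in the thalamus and lowest in the epithalamus.

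The thalamus arrays lay on different sides for genes led by either region. Of the 41 genes at least 4-fold higher on the prethalamus array, WT thalamus replicate 1 lay nearer to the epithalamus array in 38 and replicate 2 in 33. Of the 52 genes at least 4-fold higher on the epithalamus array, replicate 1 lay nearer to the epithalamus array in 31 and replicate 2 in 23. At 2-fold, replicate 1 lay nearer to the epithalamus array in 142 and replicate 2 in 111 of the 195 genes led by the prethalamus. Of the 202 genes led by the epithalamus they did so in 109 and 73. So at 4-fold the thalamus lay on the epithalamus side for most genes led by the prethalamus, and less clearly so at 2-fold on replicate 2. For genes led by the epithalamus it lay on either side. Of the 41, 13 were not detected on either WT thalamus array, and of the 52, 6 were not.

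Markers of other tissues are given as levels. Of 7 hypothalamic and eye genes compared, 4 were 2-fold or more higher on the prethalamus array, among them Foxd1, Nkx2-1 and Sim2, none of the 4 detected on the epithalamus array, and the summed signal of the 7 was 806.9 on the epithalamus array and 1818.0 on the prethalamus array. Nkx2-1, a homeobox gene that marks hypothalamus and ventral telencephalon, read 8.01 by 1 probe and was not detected by the other. A further 12 hypothalamic and eye genes, among them Rax, Otp, Six6 and Hmx3, were not detected on either array, and neither were the telencephalic genes Emx1 and Emx2. Of 8 choroid plexus genes with a probe, 5 including Ttr were undetected on both, while Msx1 and Enpp2, the autotaxin gene, at 6.57, were detected on the epithalamus array and not on the prethalamus array. Enpp2 was higher on both WT thalamus arrays, at 7.71 and 6.73. Its difference between the regions was under 2-fold without background correction, at 0.54, and with an offset of 50. Erythroid genes were all under 2-fold, at 13.17 and 13.55 for the globin gene Hba-a1 and with a summed signal of 14962.4 and 17566.0 for 5 genes. The 8 endothelial and pericyte genes compared were all under 2-fold, with summed signals of 1643.2 and 1727.0. Of 8 meningeal and mesenchymal genes compared, Col2a1, the type II collagen gene, was higher on the epithalamus array, at 8.002 against 5.73, with a second probe at 2.31, and Foxd1 higher on the prethalamus array. The 3 microglial genes compared were at most 0.88 apart. The part of these tissues in the differences was not tested.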

How the data were processed

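RNA from the epithalamus and prethalamus of wild-type embryos was hybridised to 2 of the 6 arrays of one bead chip. The deposited values are bead intensity per probe with a detection score, a fraction that the authors' table gives per probe and array, and detection p was taken as 1 minus it, which is a reading of the values and not stated in the sources used here. The authors also deposited normalized log2 values, used as an alternative. BeadStudio, GenomeStudio and lumi are named in the submitters' processing notes, without versions. Intensities of the 6 arrays were corrected for background with limma 3.58.1 (neqc, offset 16) in R 4.3.3, quantile normalized and put on the log2 scale. Gene tables were made with Python 3.11.15 and pandas 2.3.3. The background step was tested on simulated data.

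Probes were named through the authors' joined table, matched by the 6 signals for 31448 of 31459 entries, and RefSeq. Of the matched probes 19533 were named by accession, 2780 by current symbol, 2318 by synonym and 6817 kept the name of the file. A gene was represented by its brightest probe, taken as the mean of the 6 arrays. Genes detected on at least 1 of the 2 arrays (detection p under 0.05) were compared as epithalamus minus prethalamus. With 1 array per region no test was made, and the number of arrays limits the precision. The other chip was not used here.

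Named genes were the given markers, the 12 largest differences per direction among genes detected on both arrays, the 8 brightest detected on 1 array alone, up to 4 members of each list past 2-fold or the 2 brightest, up to 2 nearly equal members per list (within 0.25), and the 8 genes farthest above or below both WT thalamus arrays. Other genes, such as the remaining list members, were named after their values were seen. The members and lists were chosen with earlier results of these data known. Some genes that meet this rule are not reported here.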

Additional observations from a re-analysis of the deposited data

How the results depend on the processing

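The direction of each of the 397 differences past 2-fold was the same under all 9 alternatives wherever the gene was present, but their size depended on the treatment of dim signals. The alternatives that change only the detection filter keep the same values, so the direction could not change under them. Without background correction 78 genes were 2-fold higher on the epithalamus array, 68 on the prethalamus array and 30 were 4-fold apart. With the deposited normalized log2 values the counts were 128, 125 and 55, and with an offset of 50 they were 121, 124 and 54. With genes detected on both arrays alone, 130 were higher on the epithalamus array and 55 were 4-fold apart, since fewer genes enter. Of the 397 genes, 146 stayed past 2-fold without background correction, 253 of 386 with the deposited values, 245 with the offset of 50, 373 with the mean of detected probes, 391 with 75th percentile scaling and 392 with the 2 arrays normalized alone. List medians changed sign in 3 lists with genes detected on both arrays: Sonic hedgehog pathway to 0.70, hypothalamus and eye to 0.12 and telencephalon to 0.07, the last also to 0.01 with no detection filter. Those settings change which members enter the median. No paired analysis was possible because each region has 1 array. Leaving out a replicate was not possible for the same reason.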

Other observations

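Of 14699 probes with no name in use, 4866 were detected on at least 1 of the 2 arrays. Among them 89 were 2-fold or more higher on the epithalamus array and 109 on the prethalamus array. Of 82 genes past 2-fold with more than 1 detected probe, 41 had all detected probes past 2-fold, and 8 had probes of opposite sign.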
